A study of Mus musculus with 40 samples.

Results

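The clock output genes described here are 9 regulators of the circadian clock in mouse lung: Dbp, Tef, Hlf, Nfil3, Nr1d1, Nr1d2, Ciart, Bhlhe40 and Bhlhe41. They are 9 of the 55536 genes in each count table and were chosen by name as regulators that act through D-box elements, Rev-erb elements or repression at E-boxes. The choice was made after a clock score built partly from them had been seen to differ between saracatinib and vehicle lungs of saline mice in the same data. All 9 passed the filter on low counts in both fibrosis models.

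Bulk RNA-seq had been made from whole left lungs of C57BL/6 mice, with 5 libraries in each of 8 groups and 40 in all. Lung fibrosis was modelled either with an adenovirus that carries mouse TGF-β1 under a CMV promoter (Ad-TGFβ1), given into the nose, or with bleomycin at 1.5 U/kg, a chemotherapy drug that injures the lung, given by the oropharynx. Mice then received saracatinib, an oral inhibitor of Src family kinases, at 20 mg/kg, or its vehicle, by gavage each day. The groups were Ad-TGFβ1 with saracatinib, Ad-TGFβ1 with vehicle, empty vector with saracatinib, empty vector with vehicle, bleomycin with saracatinib, bleomycin with vehicle, saline with saracatinib and saline with vehicle. The series text gives dosing from day 10 to day 27 after the instillation and lungs taken on day 28 (the sample protocol has dosing until day 28), and every mouse, controls included, had an instillation and the gavages. The CMV promoter is not restricted to a cell type, and a whole lung mixes all of its cell types. The sources used here state neither the hour at which lungs were taken nor the mice's ages, so whether the groups were sampled at the same hours is not known. The labels say that both sexes were studied, and no library held over 12 counts of Xist, the RNA of the inactive X chromosome. Total counts per library lay between 8812233 and 17336972, and all 60 markers of lung cell types, the 6 of the surfactant-making alveolar type 2 cell among them, passed the filter on low counts in both models.

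The mammalian clock is a feedback loop in which CLOCK and its partner BMAL1 (gene Arntl) bind E-boxes and switch on their own repressors. DBP, TEF and HLF are related bZIP activators that bind D-boxes, and NFIL3 is the repressor that competes for the same element. REV-ERBα (Nr1d1) and REV-ERBβ (Nr1d2) are heme-binding nuclear receptors that repress Arntl and Nfil3, and CIART, BHLHE40 and BHLHE41 repress transcription driven by CLOCK and BMAL1. In lung, as in other tissues, the transcripts of most of these genes rise and fall over the day, with those of Dbp and Nr1d1 among the strongest rhythms and Arntl and Nfil3 high at other hours, so a level depends on the hour of sampling.

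The annotation (GENCODE M21 on GRCm38) places Dbp on the plus strand of chr7:45705088-45710203 and Tef on the plus strand of chr15:81802421-81826863. Hlf lies on the minus strand of chr11:90336536-90390895, and Nfil3 on the minus strand of chr13:52967209-52981073. Nr1d1 occupies the minus strand of chr11:98767932-98775333 and Nr1d2 the minus strand of chr14:18204054-18239127. Ciart is on the minus strand of chr3:95878503-95882251, Bhlhe40 on the plus strand of chr6:108660629-108666925, and Bhlhe41 on the minus strand of chr6:145858243-145865558. All are protein-coding. Exons of a gene on the opposite strand cover 8.55% of the exonic bases of Nr1d1 (Thra, a thyroid hormone receptor), 18% of those of Dbp (Sphk2), 19% of those of Bhlhe41 (Gm43909), 2.51% of those of Bhlhe40 (0610040F04Rik) and 2.45% of those of Tef (Gm17597). The libraries came from a stranded kit, per the labels' protocols, but how the counting used the strand is not stated, which leaves the counts of those stretches uncertain.

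Promoters were taken from RefSeq on GRCm38.p6 as 250 bases before and 50 after the transcription start, and 8 of the 9 genes had an entry, Tef with 2 starts, Bhlhe40 with none. They were searched on both strands for the E-box CACGTG, the D-box TTANGTAA and the Rev-erb and ROR response element. Shown are the promoters with a match, because E-boxes are the element through which the core loop acts, and that of Dbp, the gene with the largest saracatinib difference of the 9 in Ad-TGFβ1 lungs, for comparison. Capitals mark CACGTG.
Ciart, chr3:95882179-95882478, minus strand: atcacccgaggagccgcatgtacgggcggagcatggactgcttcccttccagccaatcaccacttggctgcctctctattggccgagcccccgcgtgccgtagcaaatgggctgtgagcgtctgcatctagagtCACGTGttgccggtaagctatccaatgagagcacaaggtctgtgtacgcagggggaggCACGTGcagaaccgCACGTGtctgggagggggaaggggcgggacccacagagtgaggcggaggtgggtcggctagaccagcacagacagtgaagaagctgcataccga
Tef, first start, chr15:81802423-81802722, plus strand: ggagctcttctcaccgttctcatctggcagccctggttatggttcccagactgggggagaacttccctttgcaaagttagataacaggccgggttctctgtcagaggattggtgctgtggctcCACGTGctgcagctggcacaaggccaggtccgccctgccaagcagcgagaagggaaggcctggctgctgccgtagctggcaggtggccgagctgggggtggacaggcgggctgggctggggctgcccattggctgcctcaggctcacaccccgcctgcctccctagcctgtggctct
Tef, second start, chr15:81811164-81811463, plus strand: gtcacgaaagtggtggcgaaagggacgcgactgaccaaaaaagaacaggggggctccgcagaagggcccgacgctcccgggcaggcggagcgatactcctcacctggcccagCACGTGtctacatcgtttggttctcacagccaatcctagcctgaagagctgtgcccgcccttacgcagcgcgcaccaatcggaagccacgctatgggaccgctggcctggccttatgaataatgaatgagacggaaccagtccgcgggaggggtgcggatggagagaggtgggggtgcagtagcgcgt
Bhlhe41, chr6:145865371-145865670, minus strand: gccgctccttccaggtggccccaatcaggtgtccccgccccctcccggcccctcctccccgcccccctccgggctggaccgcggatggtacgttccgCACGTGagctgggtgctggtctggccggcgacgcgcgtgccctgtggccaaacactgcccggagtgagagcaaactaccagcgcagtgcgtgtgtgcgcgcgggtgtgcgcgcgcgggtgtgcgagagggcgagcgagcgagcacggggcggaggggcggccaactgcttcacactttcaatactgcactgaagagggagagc
Dbp, chr7:45704997-45705296, plus strand: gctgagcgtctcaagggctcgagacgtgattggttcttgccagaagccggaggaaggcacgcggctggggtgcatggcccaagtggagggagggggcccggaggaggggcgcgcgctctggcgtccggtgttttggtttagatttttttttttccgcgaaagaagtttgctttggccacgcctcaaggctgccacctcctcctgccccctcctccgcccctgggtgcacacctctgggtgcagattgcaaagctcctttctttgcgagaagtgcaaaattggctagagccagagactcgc

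CACGTG reads the same on both strands, and no 2 matches overlapped. Ciart held 3 E-boxes, beginning 116, 58 and 44 bases before its start. Tef held 1 at each start, beginning 127 and 138 bases before it, and Bhlhe41 held 1 beginning 153 bases before its start. Of 32851 mouse promoters in the same table, 7.15% held at least 1 CACGTG and 0.0883% held 3 or more. The D-box letters occurred in 2.32% of all promoters and the Rev-erb and ROR element in 0.606%, and neither was present in the windows of the 8 genes. The windows of Dbp, Hlf, Nfil3, Nr1d1 and Nr1d2 held none of the letters searched, which concerns only these 300 bases.

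Per kilobase of merged exons, Nr1d1 and Tef had the highest mean levels of the 9 in 6 of the 8 groups. Bhlhe40 came between them in bleomycin lungs with vehicle, at 25.3 ± 12.0 CPM per kb, and Nr1d2 in Ad-TGFβ1 lungs with vehicle, at 21.2 ± 4.33 (SD, n = 5 each). In Ad-TGFβ1 lungs with saracatinib, Nr1d1 averaged 58.0 ± 7.41 CPM per kb, Tef 37.1 ± 3.3, Nr1d2 36.8 ± 5.8 and Dbp 32.7 ± 8.51 (SD, n = 5 each), where the spreads of Tef, Nr1d2 and Dbp overlapped. In the same lungs Bhlhe40 averaged 18.0 ± 1.71 CPM per kb, Ciart 6.59 ± 1.44, Hlf 5.95 ± 1.63, Bhlhe41 5.94 ± 1.15 and Nfil3 2.78 ± 0.656. In saline lungs with vehicle, Nr1d1 averaged 26.2 ± 4.72 CPM per kb and Tef 20.4 ± 2.3, while Nr1d2, Nfil3, Ciart and Bhlhe40 lay between 8.86 and 10.8 with overlapping spreads. Dbp, Hlf and Bhlhe41 were the low end there, at 1.88 ± 0.554, 2.15 ± 0.433 and 2.3 ± 0.26 CPM per kb. Dbp thus had the lowest mean of the 9 in saline lungs with vehicle and the fourth highest in Ad-TGFβ1 lungs with saracatinib. Levels in the 2 models were scaled separately.

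**Figure D1:**
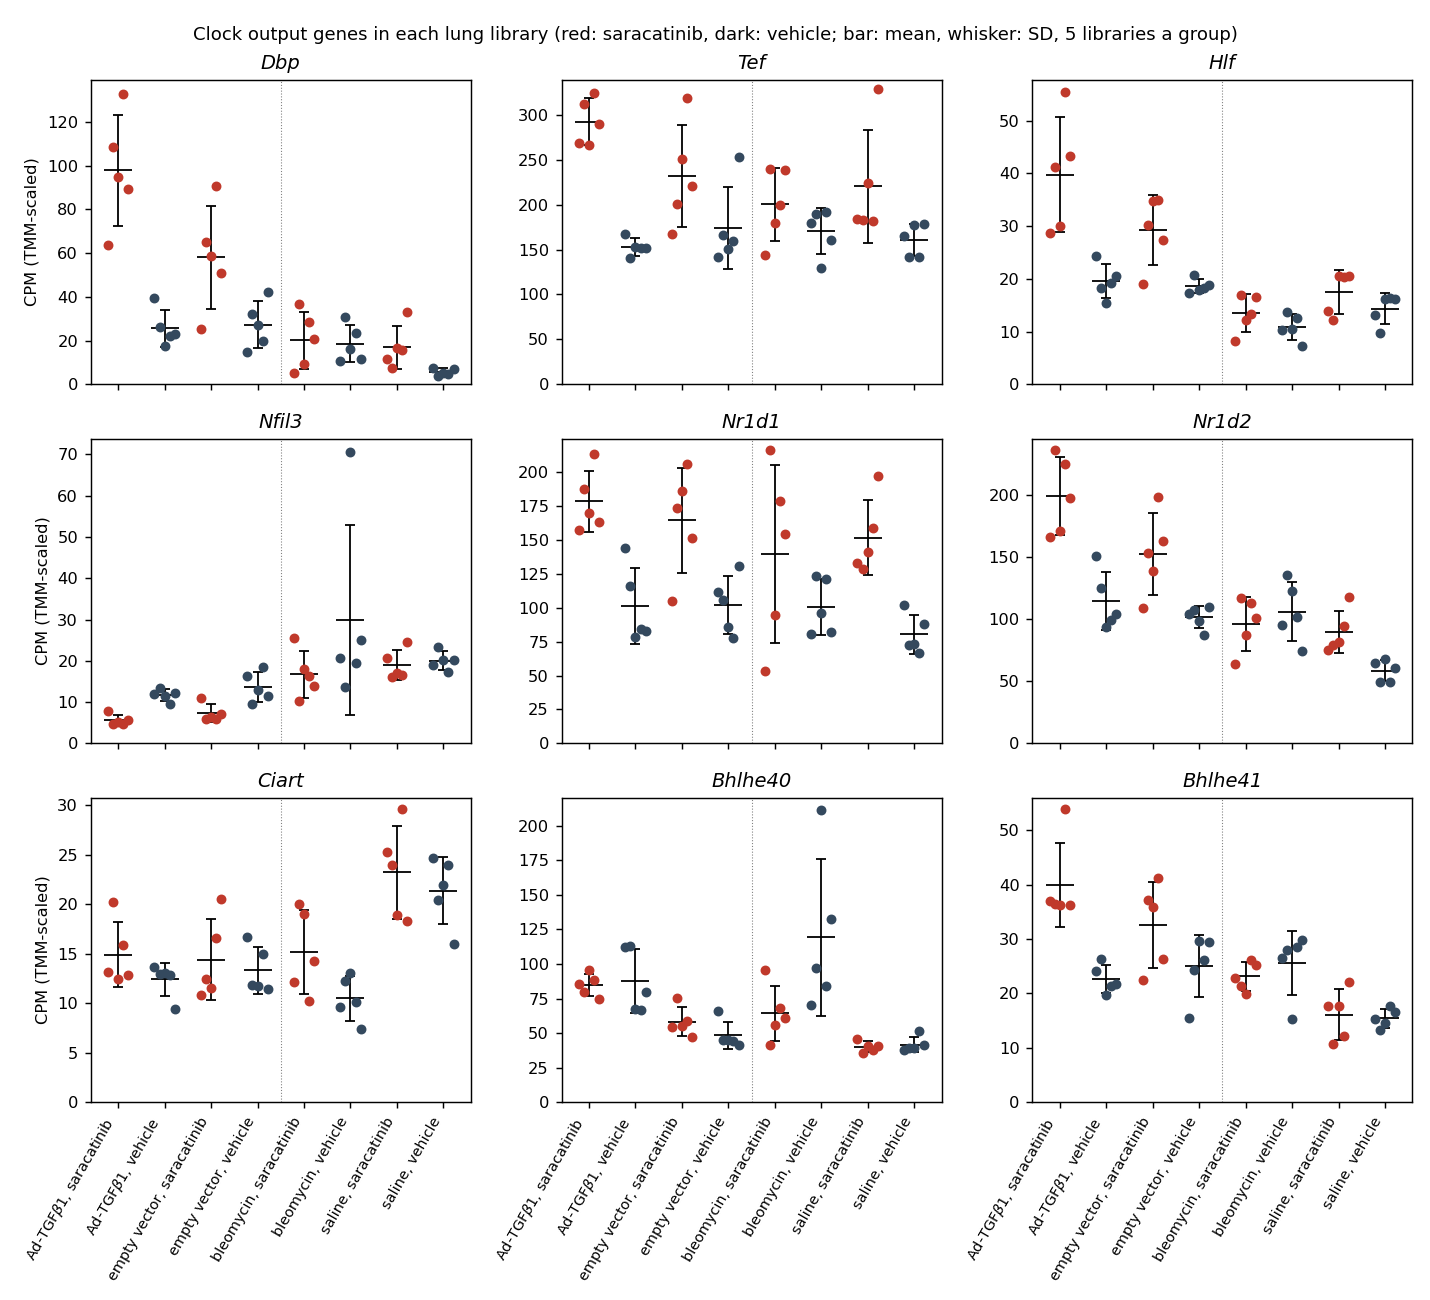
Each panel plots 1 gene, with the CPM (TMM-scaled count relative to library size) of each library on the y axis and the 8 groups on the x axis, saracatinib in red and vehicle in dark grey. Horizontal bars are group means and whiskers SDs over 5 libraries. In the Ad-TGFβ1 lungs at the left, the red points of Dbp, Tef, Hlf, Nr1d1, Nr1d2 and Bhlhe41 all lie above the dark ones and those of Nfil3 all lie below.

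Whether the Src kinase inhibitor altered these genes in fibrotic lungs was asked first in the Ad-TGFβ1 model. The D-box activators Dbp, Tef and Hlf and the Rev-erb gene Nr1d2 were higher with saracatinib, by 3.79-, 1.91-, 2.03- and 1.74-fold, and the D-box repressor Nfil3 was lower, at 0.482 of its vehicle level. These 5 genes passed edgeR's quasi-likelihood test with Benjamini-Hochberg adjustment over 18834 genes, against 17 genes in all, or 0.0903% of those tested. The other 4 genes did not pass. In whole lung, fewer cells of a type and less RNA per cell cannot be told apart.

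Dbp measured 63.7, 109, 95.0, 133 and 89.3 CPM in the Ad-TGFβ1 lungs with saracatinib, against 39.7, 26.1, 17.4, 22.1 and 23.2 CPM in those with vehicle. The lowest saracatinib library exceeded the highest vehicle library, and the log2 fold change was 1.92 ± 0.307 (SE, n = 5 per group, edgeR adjusted p = 0.0238). Tef, the most abundant of the D-box activators, measured 268, 312, 266, 324 and 289 CPM with saracatinib, against 168, 140, 153, 152 and 152 CPM with vehicle. The groups were again separate, and the spread among vehicle libraries was small (log2 fold change 0.93 ± 0.152 SE, n = 5 per group, edgeR adjusted p = 0.0238). Hlf measured 28.8, 41.2, 30.0, 55.4 and 43.3 CPM with saracatinib, against 24.3, 18.3, 15.4, 19.2 and 20.5 CPM with vehicle. Its groups did not overlap either, and its log2 fold change was 1.02 ± 0.175 (SE, n = 5 per group, edgeR adjusted p = 0.0303).

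Nfil3 moved the other way. It measured 7.89, 4.63, 5.28, 4.72 and 5.62 CPM in Ad-TGFβ1 lungs with saracatinib, against 11.9, 13.4, 11.4, 9.52 and 12.1 CPM with vehicle, from at least 47 reads in each library. Every saracatinib value lay under every vehicle value, and the log2 fold change was -1.05 ± 0.201 (SE, n = 5 per group, edgeR adjusted p = 0.0465).

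Of the Rev-erb genes, Nr1d2 measured 166, 236, 171, 225 and 198 CPM in Ad-TGFβ1 lungs with saracatinib, against 151, 125, 93.4, 99.5 and 104 CPM with vehicle. The groups were separate (log2 fold change 0.80 ± 0.146 SE, n = 5 per group, edgeR adjusted p = 0.0348). Nr1d1 measured 158, 188, 170, 214 and 163 CPM with saracatinib, against 144, 116, 78.8, 84.3 and 83.3 CPM with vehicle. Its groups did not overlap and its log2 fold change of 0.81 ± 0.184 was close to that of Nr1d2, but it missed the threshold (edgeR adjusted p = 0.152, n = 5 per group).

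The E-box repressors differed among themselves. Bhlhe41 measured 37.0, 36.4, 36.3, 53.8 and 36.2 CPM in Ad-TGFβ1 lungs with saracatinib, against 24.2, 26.3, 19.7, 21.4 and 21.8 CPM with vehicle. Its groups were separate, with a log2 fold change of 0.82 ± 0.175 that missed the threshold (edgeR adjusted p = 0.111, n = 5 per group). Ciart averaged 14.9 ± 3.26 CPM with saracatinib and 12.4 ± 1.69 CPM with vehicle, and Bhlhe40 84.8 ± 8.03 CPM with saracatinib and 87.6 ± 23.1 CPM with vehicle (SD, n = 5 each). Both had overlapping groups, with edgeR adjusted p of 0.694 for Ciart and 0.94 for Bhlhe40. In all, 6 genes lay wholly above and 1 wholly below, while 3.07% of all genes had groups that did not overlap in either direction. DESeq2 and limma voom each called 7 of the 9, adding Nr1d1 and Bhlhe41. A fit of only the 2 groups called 4, without Hlf and Nr1d2 (both at an edgeR adjusted p of 0.0563) and with Bhlhe41 (0.0324).

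The calls were less stable than the directions when 1 library was left out. Every one of the 10 fits that left out 1 Ad-TGFβ1 library kept the sign of the 5 called genes, and the log2 fold change of Dbp stayed between 1.80 and 2.14. No clock output gene was called without saracatinib library 4 or 5 or without vehicle library 2, 3 or 5, where edgeR called between 0 and 4 genes of all those tested, and only 2 of the 9 were called without saracatinib library 2 or vehicle library 4. Nfil3 stayed called in 1 of the 10, without saracatinib library 1. Across the 10 fits the adjusted p ranged from 0.0208 to 0.0889 for Dbp, 0.0289 to 0.0889 for Tef, 0.0237 to 0.105 for Hlf, 0.0208 to 0.14 for Nr1d2 and 0.0289 to 0.211 for Nfil3. Without the libraries of both models that stood farthest from their group, which in this model were empty vector vehicle libraries 1 and 5, edgeR called 6 clock output genes.

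**Figure D2:**
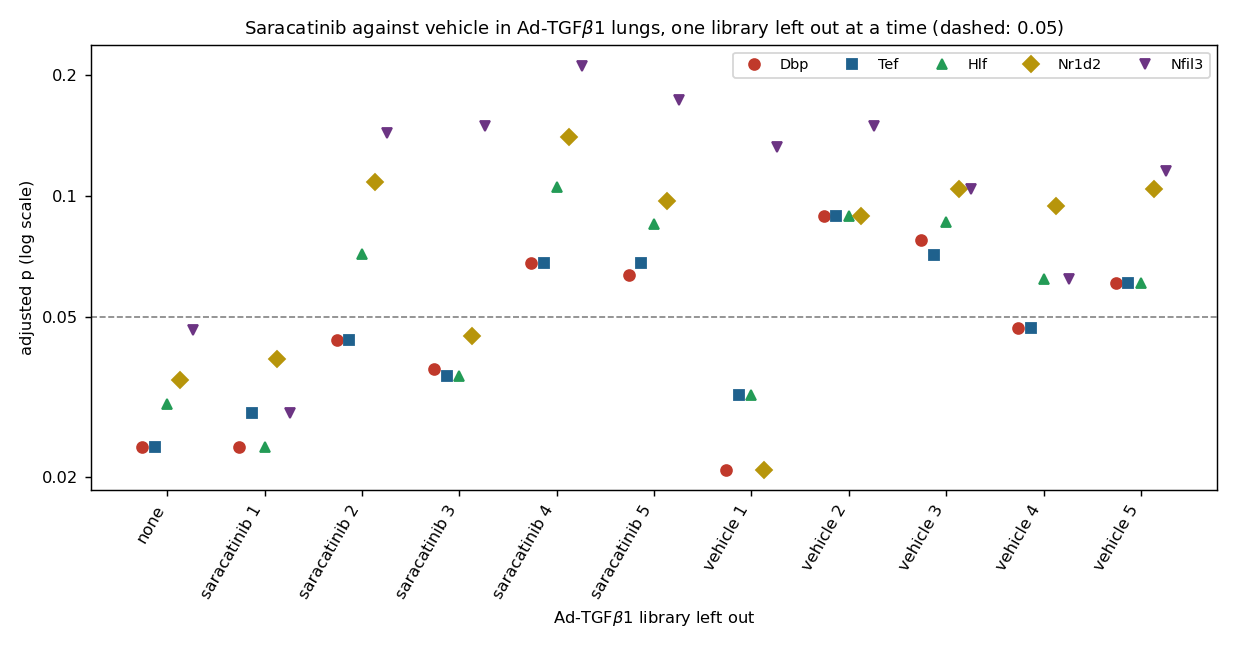
Adjusted p of the saracatinib comparison in Ad-TGFβ1 lungs on a log y axis, with the left-out library on the x axis ("none" is the fit on all libraries) and 1 symbol per gene; points are offset sideways for clarity and the dashed line marks 0.05. With no library left out all 5 genes lie under the line, and without saracatinib library 4 or 5 or vehicle library 2, 3 or 5 all 5 lie over it.

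The rest of the loop was read from 12 core genes. In Ad-TGFβ1 lungs Arntl, the Rev-erb target that encodes BMAL1, fell with saracatinib (log2 fold change -1.02 ± 0.18 SE, edgeR adjusted p = 0.034), and Per3, a period gene, rose (1.07 ± 0.191, edgeR adjusted p = 0.034). Arntl averaged 19.8 ± 4.51 CPM with saracatinib and 40.0 ± 6.59 CPM with vehicle, and Per3 198 ± 28.3 CPM with saracatinib and 94.0 ± 13.8 CPM with vehicle (SD, n = 5 each). The other 10 did not pass: Npas2, a CLOCK paralogue, had a log2 fold change of -1.29 (edgeR adjusted p = 0.0795), Cry2 0.46 and Per2 0.59. The median over the 12 was 0.122, against 0.00279 over all genes tested and 0.815 over the 9 clock output genes. Of the 17 genes called, 5 were clock output genes, 2 were core genes, and 10 were on neither list: Sord, Snhg11, Gpr155 and Slc6a6 higher, and Spon2, Adamts9, Ccnjl, Rasl11a, Bcl3 and Gm43953 lower, named after their values were seen. None of 12 glucocorticoid-responsive, 12 immediate early and 12 hypoxia-responsive genes was called by edgeR in this comparison. At an unadjusted p under 0.05 the lists held 1, 1 and 2 genes, against 1649 of all 18834 genes tested. None of 12 clock kinases and ubiquitin ligases and 10 other widely rhythmic genes was called either, with 1 and 4 at an unadjusted p under 0.05. Of 60 markers of lung cell types (alveolar, airway, endothelial, fibroblast, leukocyte and striated muscle), edgeR called 0, and 0 also at an unadjusted p under 0.05. Summed macrophage markers, for instance, spanned 362 to 502 CPM with saracatinib and 460 to 522 CPM with vehicle.

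In empty vector lungs, which had the vector without TGF-β1, saracatinib and vehicle were compared in the same way. No clock output gene passed edgeR's test, while 1 gene in all passed (0.00531% of those tested), Adm, a hypoxia-responsive peptide hormone. At an unadjusted p under 0.05, 6 of the 9 were higher and 1 lower, against 2084 of all 18834 genes tested in either direction. DESeq2 called 1 of the 9 (Nfil3) and limma voom 0. Dbp measured 25.3, 65.1, 58.6, 90.8 and 50.7 CPM in empty vector lungs with saracatinib, against 14.6, 32.2, 27.2, 19.8 and 42.4 CPM with vehicle. The groups overlapped through saracatinib library 1, and the log2 fold change was 1.09 ± 0.307 (SE, n = 5 per group, edgeR adjusted p = 0.385). Nfil3 measured 11.1, 5.80, 6.45, 5.87 and 7.09 CPM with saracatinib, against 16.2, 9.62, 12.9, 18.6 and 11.3 CPM with vehicle. Saracatinib library 1 again lay within the vehicle range (log2 fold change -0.91 ± 0.197 SE, n = 5 per group, edgeR adjusted p = 0.385). Log2 fold changes were 0.68 for Nr1d1, 0.65 for Hlf, 0.59 for Nr1d2, 0.41 for Tef, 0.38 for Bhlhe41, 0.27 for Bhlhe40 and 0.10 for Ciart, with edgeR adjusted p between 0.385 and 0.842. Without vehicle library 1 edgeR called 1112 genes and 3 of the 9, Nfil3 lower (adjusted p = 0.0327) and Nr1d1 and Nr1d2 higher (adjusted p = 0.0402 and 0.0347).

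Whether the saracatinib effect differed between Ad-TGFβ1 and empty vector lungs was tested as an interaction. By edgeR this called 0 of 18834 genes (0%), with 1933 at an unadjusted p under 0.05 and 1 called by DESeq2 and 413 by limma voom. Leaving out 1 library gave between 0 and 1190 genes, with 1190 without empty vector vehicle library 1, and none of the 9 genes in any of these 20 fits. None of the 9 was called by edgeR, DESeq2 or limma voom, and 1 had an unadjusted p under 0.05. The interaction of Dbp was 0.83 ± 0.429 on the log2 scale (SE, edgeR adjusted p = 0.496) and that of Tef 0.52 ± 0.213 (edgeR adjusted p = 0.481). A difference between the lung types in the saracatinib effect was thus not detectable for these genes with 5 libraries a group.

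In bleomycin lungs 1 clock output gene, the E-box repressor Bhlhe40, was lower with saracatinib, at 0.539 of its vehicle level. The D-box activators did not pass, with log2 fold changes of 0.11 for Dbp, 0.24 for Tef and 0.30 for Hlf. Bhlhe40 was the only one of the 9 called, where edgeR called 14% of all genes tested. Bhlhe40 measured 95.8, 41.1, 55.7, 67.9 and 60.6 CPM in bleomycin lungs with saracatinib, against 70.4, 97.4, 211, 84.1 and 132 CPM with vehicle. The groups overlapped at saracatinib library 1, and vehicle library 3 was the highest of all 40 (log2 fold change -0.89 ± 0.235 SE, n = 5 per group, edgeR adjusted p = 0.017). Without that vehicle library the log2 fold change was -0.58 and the adjusted p 0.0685, and without saracatinib library 2 or 3 the adjusted p was 0.0592 and 0.0512. In a fit of only these 2 groups it was 0.066.

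Dbp measured 5.41, 36.6, 9.18, 28.6 and 20.9 CPM in bleomycin lungs with saracatinib, against 10.9, 30.7, 16.0, 23.7 and 11.6 CPM with vehicle. The saracatinib libraries spread on both sides of the vehicle range (log2 fold change 0.11 ± 0.431 SE, n = 5 per group, edgeR adjusted p = 0.891). Nr1d1 measured 53.2, 217, 94.4, 179 and 154 CPM with saracatinib, against 80.7, 124, 96.4, 121 and 82.5 CPM with vehicle. Saracatinib library 1 was the lowest of all 40 for Nr1d1, and saracatinib libraries 2, 4 and 5 lay above every vehicle library. Nfil3 averaged 16.8 ± 5.67 CPM with saracatinib and 29.8 ± 23.1 CPM with vehicle (SD, n = 5 each), where vehicle library 3 alone held 70.5 CPM. Its edgeR adjusted p was 0.0924, and that of Ciart, with 15.1 ± 4.24 CPM with saracatinib and 10.5 ± 2.24 CPM with vehicle, was 0.0697. Without saracatinib library 1, edgeR called 4 of the 9: Nr1d1 (log2 fold change 0.68, adjusted p = 0.0256) and Ciart (0.60, adjusted p = 0.0491) higher, and Bhlhe40 and Nfil3 (-1.03, adjusted p = 0.0475) lower.

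Of the 12 core genes, Arntl2, a paralogue of Arntl, was the one called in bleomycin lungs (log2 fold change -0.57, edgeR adjusted p = 0.0172), and Arntl averaged 53.7 ± 8.76 CPM with saracatinib and 44.2 ± 11.4 CPM with vehicle (SD, n = 5 each). Beside the lower Bhlhe40, a gene known to respond to low oxygen and to be expressed in macrophages, 6 of 12 hypoxia-responsive genes were lower and none higher, among them Ankrd37 (-0.82), Ndrg1 (-0.77), Slc2a1 (-0.70) and Ldha (-0.67). Macrophage markers were lower for 4 of 7 and higher for none, and their sum spanned 375 to 504 CPM with saracatinib and 549 to 866 CPM with vehicle. B cell markers were higher for 3 of 5 and ciliated markers for 1 of 6, and fibroblast markers were higher for 1 and lower for 2 of 5. Of the glucocorticoid-responsive genes 4 of 12 were lower, among them Fkbp5 (-1.16) and Mt2 (-1.48). The part of each in the Bhlhe40 result was not tested.

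In saline lungs the saracatinib difference is given as a description, because it belongs to the comparison that led to the choice of these genes. Dbp measured 11.4, 7.55, 16.7, 15.7 and 33.0 CPM in saline lungs with saracatinib, against 7.61, 3.60, 5.17, 4.71 and 7.01 CPM with vehicle, with log2 fold change 1.57 ± 0.473 (SE). Nr1d1 measured 133, 129, 141, 159 and 197 CPM with saracatinib, against 102, 72.2, 73.2, 66.8 and 88.4 CPM with vehicle. The libraries with saracatinib all lay above those with vehicle for Tef, Nr1d1 and Nr1d2, against 1.4% of all genes with groups that did not overlap in either direction. Log2 fold changes were 0.91 ± 0.259 for Nr1d1, 0.62 ± 0.172 for Nr1d2, 0.45 ± 0.164 for Tef and 0.28 ± 0.208 for Hlf, and between -0.08 and 0.12 for Ciart, Bhlhe41, Bhlhe40 and Nfil3. Nfil3, called lower in Ad-TGFβ1 lungs, averaged 18.9 ± 3.63 CPM with saracatinib and 20.0 ± 2.23 CPM with vehicle (SD, n = 5 each) in saline lungs. The interaction of saracatinib with bleomycin was -1.46 ± 0.639 for Dbp and -0.75 ± 0.241 for Nr1d2 on the log2 scale, also as a description.

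**Figure D3:**
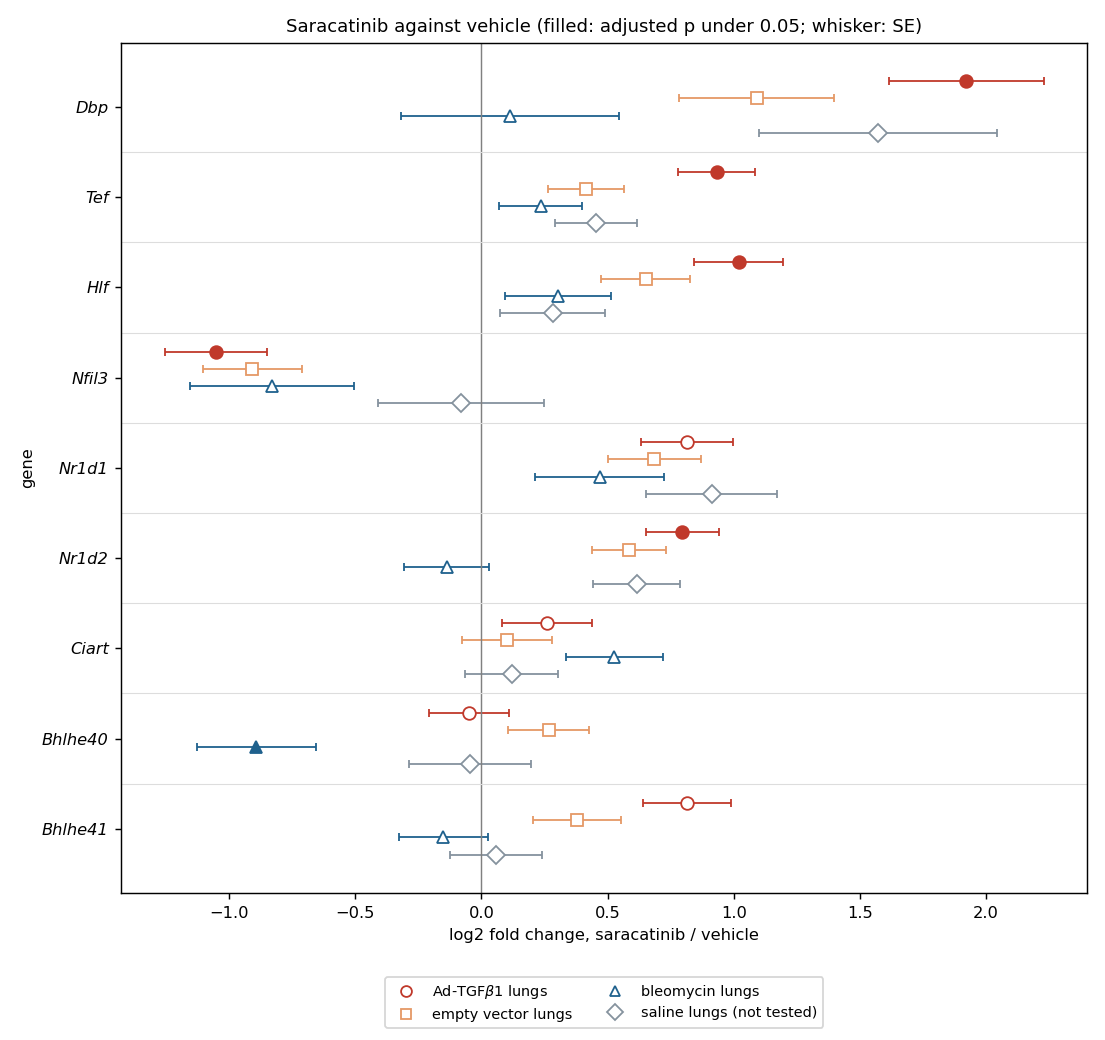
Log2 fold change of saracatinib over vehicle on the x axis for each gene on the y axis, in Ad-TGFβ1, empty vector, bleomycin and saline lungs; whiskers are SEs and filled symbols passed the adjusted p of 0.05. The filled symbols are Dbp, Tef, Hlf, Nfil3 and Nr1d2 in Ad-TGFβ1 lungs and Bhlhe40 in bleomycin lungs, and the saline values were not tested.

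The saracatinib effect in the 2 kinds of fibrotic lung was compared in a fit of all 40 libraries, in which the model and the separate experiment cannot be told apart. By edgeR 2 clock output genes differed, where 2.46% of all genes did. The effect of Nr1d2 in bleomycin lungs lay 0.93 ± 0.235 under that in Ad-TGFβ1 lungs on the log2 scale (difference -0.93, SE, edgeR adjusted p = 0.0309), and that of Bhlhe41 0.96 ± 0.253 under it (difference -0.96, edgeR adjusted p = 0.0373). The difference of Dbp was larger but less exact, -1.80 ± 0.547 (edgeR adjusted p = 0.0669), and DESeq2 and limma voom called it. Of the core genes, Arntl (1.30 ± 0.236, edgeR adjusted p = 0.00669) and Npas2 (1.93 ± 0.374, edgeR adjusted p = 0.0102) differed in the opposite direction to Dbp. Nr1d2 was not called without bleomycin saracatinib library 3, bleomycin vehicle library 2 or 3, or Ad-TGFβ1 vehicle library 3 or 4. Bhlhe41 was not called without bleomycin saracatinib library 2 or 3, bleomycin vehicle library 2, Ad-TGFβ1 saracatinib library 1, 3 or 4, or Ad-TGFβ1 vehicle library 1, 3, 4 or 5.

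What bleomycin itself did was asked in lungs of vehicle mice, a comparison that shares its saline libraries with the one that led to the choice of genes, so its p-values are not independent of that choice. Dbp, Nr1d2, Bhlhe40 and Bhlhe41 were higher after bleomycin, by 3.31-, 1.82-, 2.86- and 1.66-fold, and Ciart was lower, at 0.491 of its saline level. These 5 of 9 stood against 40.9% of all genes tested, and Tef, Hlf, Nfil3 and Nr1d1 did not pass. In each of the 10 fits that left out 1 library 5 clock output genes were called, and the signs of these 5 did not change. Nfil3, not called, had a log2 fold change of 0.57, and -0.03 without bleomycin vehicle library 3.

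Bhlhe40 measured 70.4, 97.4, 211, 84.1 and 132 CPM in bleomycin lungs with vehicle, against 37.5, 39.1, 39.1, 51.5 and 41.1 CPM in saline lungs with vehicle. Each bleomycin library exceeded each saline library (log2 fold change 1.52 ± 0.241 SE, n = 5 per group, edgeR adjusted p = 7.04e-05). Ciart measured 9.65, 12.2, 13.1, 10.1 and 7.43 CPM with bleomycin, against 24.6, 20.4, 21.9, 23.9 and 16.0 CPM with saline. Its groups were separate in the opposite direction (log2 fold change -1.03 ± 0.19 SE, n = 5 per group, edgeR adjusted p = 3.14e-04). Dbp, at 10.9, 30.7, 16.0, 23.7 and 11.6 CPM with bleomycin, against 7.61, 3.60, 5.17, 4.71 and 7.01 CPM with saline, was also separate (log2 fold change 1.73 ± 0.469 SE, n = 5 per group, edgeR adjusted p = 0.00636). Nr1d2 measured 95.5, 135, 123, 102 and 74.7 CPM with bleomycin, against 65.0, 49.3, 67.5, 49.7 and 60.3 CPM with saline. It was the fourth gene whose groups did not overlap, as was the case for 26.5% of all genes (log2 fold change 0.86 ± 0.172 SE, n = 5 per group, edgeR adjusted p = 5.92e-04). Bhlhe41 averaged 25.7 ± 5.89 CPM with bleomycin and 15.5 ± 1.74 CPM with saline (SD, n = 5 each), with library 3 of the bleomycin group at 15.3 CPM inside the saline range (edgeR adjusted p = 0.00305).

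Among the core genes, Arntl (log2 fold change -0.89), Npas2 (-1.56), Cry1 (-0.35) and Rora (-0.36) were lower after bleomycin and Arntl2 (1.07) was higher, with edgeR adjusted p between 2.92e-05 and 0.0309. Arntl averaged 44.2 ± 11.4 CPM with bleomycin and 81.9 ± 7.44 CPM with saline (SD, n = 5 each). The median log2 fold change was -0.191 over the 12 core genes, 0.572 over the 9 clock output genes and -0.0277 over all genes tested. Of 12 clock kinases and ubiquitin ligases 4 were higher and 2 lower, and of 10 other widely rhythmic genes 3 were higher and 2 lower. Beside these changes 8 of 12 hypoxia-responsive genes were higher, led by Ankrd37 (2.21) and Ndrg1 (1.45), and Adm (-0.88) was lower. Macrophage markers were higher for 5 of 7, with sums of 549 to 866 CPM with bleomycin and 229 to 308 CPM with saline, and ciliated cell markers were lower for 5 of 6, with sums of 162 to 469 CPM with bleomycin and 433 to 1080 CPM with saline. Striated muscle markers were lower for 5 of 6, with sums of 34.8 to 114 CPM with bleomycin and 128 to 372 CPM with saline, and club cell markers for 3 of 3, with sums of 1930 to 3960 CPM with bleomycin and 4830 to 7690 CPM with saline. T cell markers were higher for 5 of 6, with sums of 26.8 to 44.6 CPM with bleomycin and 14.8 to 19.7 CPM with saline. Of the other lists, 5 of 12 glucocorticoid-responsive genes were higher and 1 lower, and 3 of 12 immediate early genes were higher and 1 lower. Endothelial markers were lower for 2 of 5, fibroblast markers were higher for 2 and lower for 2 of 5, alveolar type 1 markers were higher for 2 of 5, and 1 NK cell marker of 6 was lower. The part of these in the clock output results was not tested.

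In saracatinib mice, Ciart was the one clock output gene called between bleomycin and saline lungs, where 16% of all genes were. It measured 12.2, 20.0, 19.0, 10.3 and 14.2 CPM in bleomycin lungs with saracatinib, against 25.3, 23.9, 18.9, 29.6 and 18.3 CPM in saline lungs with saracatinib. The groups overlapped, with log2 fold change -0.62 ± 0.187 (SE, n = 5 per group, edgeR adjusted p = 0.0303), and the call was lost without bleomycin library 1, 4 or 5 or saline library 1 or 4. Bhlhe40 (0.67 ± 0.239, edgeR adjusted p = 0.0618) and Bhlhe41 (0.52 ± 0.179, edgeR adjusted p = 0.0517) were just over the threshold, and DESeq2 and limma voom called both. Dbp averaged 20.1 ± 13.0 CPM with bleomycin and 16.9 ± 9.73 CPM with saline (SD, n = 5 each; edgeR adjusted p = 0.729). The saline libraries of this comparison also belong to the one that led to the choice of genes, so its p-values are not independent of that choice. Beside the lower Ciart, ciliated markers were lower for 6 of 6, with sums of 363 to 439 CPM with bleomycin and 589 to 1420 CPM with saline, club cell markers for 3 of 3 and striated muscle markers for 4 of 6. Macrophage markers were higher for 5 and lower for 1 of 7, with sums of 375 to 504 CPM with bleomycin and 136 to 316 CPM with saline. T cell markers were higher for 5 of 6 and alveolar type 1 markers for 2 of 5, and no other list held more than 2 called genes. The part of these in the Ciart result was not tested.

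Ad-TGFβ1 was compared with empty vector next. In vehicle mice Bhlhe40 was higher by 1.81-fold and was the only clock output gene called, where 25.8% of all genes tested were. It measured 112, 113, 67.4, 66.5 and 79.5 CPM in Ad-TGFβ1 lungs with vehicle, against 65.9, 45.0, 45.1, 44.2 and 41.6 CPM in empty vector lungs with vehicle. The groups did not overlap (log2 fold change 0.86 ± 0.161 SE, n = 5 per group, edgeR adjusted p = 0.00126), and it stayed called whichever 1 library was left out. The other 8 genes had log2 fold changes between -0.23 and 0.18 with edgeR adjusted p between 0.39 and 0.973, Dbp at -0.07 ± 0.311 among them. Of the core genes Npas2 (-0.97, edgeR adjusted p = 0.00871) and Cry2 (-0.44, edgeR adjusted p = 0.00527) were lower. Hypoxia-responsive genes were split, 2 higher and 3 lower of 12, and macrophage markers were higher for 6 of 7, with sums of 460 to 522 CPM with Ad-TGFβ1 and 273 to 362 CPM with empty vector. Alveolar type 2 markers were higher for 5 of 6, with sums of 9320 to 10700 CPM with Ad-TGFβ1 and 5540 to 9310 CPM with empty vector, and T cell markers for 3 of 6. Ciliated markers were lower for 6 of 6, with sums of 362 to 545 CPM with Ad-TGFβ1 and 515 to 1110 CPM with empty vector, and club cell markers for 3 of 3. Of 12 immediate early genes 4 were lower, and of 12 glucocorticoid-responsive genes 3 were higher. The part of these in the Bhlhe40 result was not tested.

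In saracatinib mice none of the 9 genes was called by edgeR between Ad-TGFβ1 and empty vector lungs, where 2.58% of all genes were. At an unadjusted p under 0.05, 5 of the 9 were higher and none lower, against 3186 of all 18834 genes tested in either direction. Bhlhe40 averaged 84.8 ± 8.03 CPM with Ad-TGFβ1 and 58.2 ± 10.4 CPM with empty vector (SD, n = 5 each; log2 fold change 0.54, edgeR adjusted p = 0.0782). DESeq2 and limma voom called it, and so did edgeR without empty vector library 2. Dbp averaged 97.9 ± 25.5 CPM with Ad-TGFβ1 and 58.1 ± 23.7 CPM with empty vector (SD, n = 5 each; log2 fold change 0.76, edgeR adjusted p = 0.196).

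**Figure D4:**
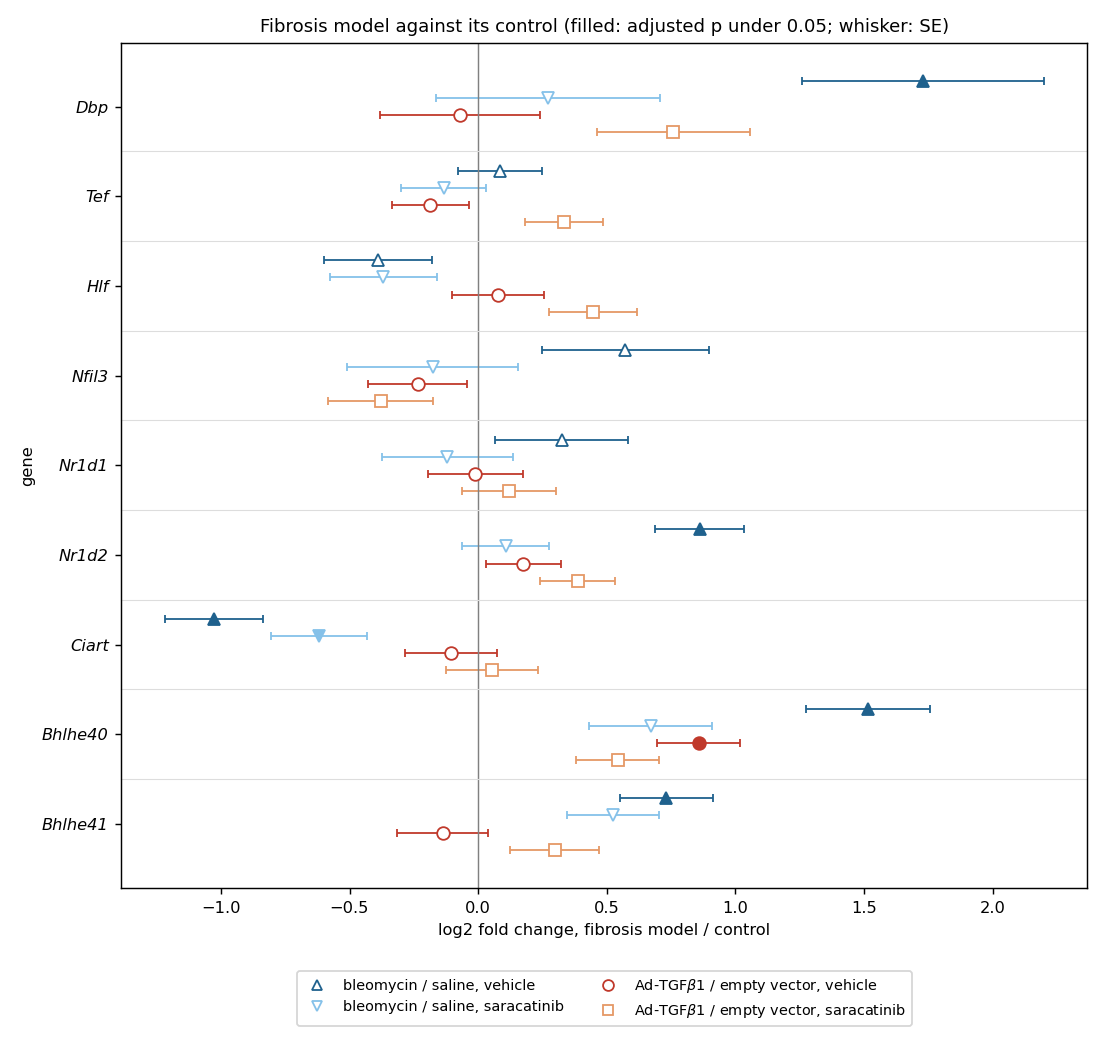
Log2 fold change of each fibrosis model over its control on the x axis for each gene on the y axis, in vehicle and in saracatinib mice; whiskers are SEs and filled symbols passed the adjusted p of 0.05. Bhlhe40 is the gene filled in vehicle mice of both models, and Dbp, Nr1d2, Ciart and Bhlhe41 are filled in vehicle mice of the bleomycin model.

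The effect of injury was also compared between the models in vehicle mice, over all 40 libraries, with model and experiment inseparable. The contrast includes the saline vehicle libraries of the comparison that led to the choice of genes, so its p-values are not independent of that choice. By edgeR 4 clock output genes differed, against 15.1% of all genes. The bleomycin effect exceeded the Ad-TGFβ1 effect by 1.81 ± 0.586 on the log2 scale for Dbp (SE, edgeR adjusted p = 0.0317), by 0.87 ± 0.258 for Bhlhe41 (edgeR adjusted p = 0.0183) and by 0.69 ± 0.237 for Nr1d2 (edgeR adjusted p = 0.0426). For Ciart the difference was -0.91 ± 0.27 (edgeR adjusted p = 0.0185). Bhlhe40, higher in both models, did not differ detectably in effect (0.67 ± 0.301, edgeR adjusted p = 0.134). Ciart and Bhlhe41 stayed called whichever 1 library was left out. Dbp was not called without bleomycin vehicle library 2 or 4, saline vehicle library 2, 3 or 4, Ad-TGFβ1 vehicle library 3 or 4, or empty vector vehicle library 2 or 5. Nr1d2 was not called in 12 of the 20 fits that left out 1 library, those without Ad-TGFβ1 vehicle library 3, 4 or 5, bleomycin vehicle library 2, 3 or 4, saline vehicle library 2 or 4, or empty vector vehicle library 1, 2, 3 or 5. Nr1d2 also lost its call with no filter on low counts (edgeR adjusted p = 0.0665), by limma voom (adjusted p = 0.0586) and without the libraries farthest from their group (edgeR adjusted p = 0.132). In the same contrast the signed log2 difference was called positive for 5 of 12 hypoxia-responsive genes and 4 of 7 macrophage markers. It was also called positive for 3 of 12 immediate early and 3 of 12 glucocorticoid-responsive genes. None of these lists held a gene called negative. A positive difference can come from a rise with bleomycin or a fall with Ad-TGFβ1, and does not say which change was larger. Of 6 NK cell markers 2 had a negative difference, and of 5 fibroblast markers 1 had a positive and 2 a negative difference. The part of these in the clock output results was not tested.

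The control lungs of the models, neither of them fibrotic, differed too. The saline vehicle libraries belong to the comparison that led to the choice of genes, so the p-values here are not independent of that choice. Dbp was 4.62-fold higher in empty vector lungs than in saline lungs of vehicle mice (log2 fold change 2.21 ± 0.438 SE, n = 5 per group, edgeR adjusted p = 3.09e-04), and the lowest empty vector library, at 14.6 CPM, stood over the highest saline library, at 7.61 CPM. Nr1d2 (log2 fold change 0.73, edgeR adjusted p = 0.00151) and Bhlhe41 (0.63, edgeR adjusted p = 0.0111) were also higher and Ciart (-0.75, edgeR adjusted p = 0.00342) lower, so that 4 of the 9 were called, where 26.2% of all genes were. Of the core genes Arntl (-0.81), Npas2 (-0.75), Cry1 (-0.57) and Clock (-0.21) were lower. Of 12 glucocorticoid-responsive genes, 6 were lower and none higher, and of 10 other widely rhythmic genes 5 were lower and 1 higher, with Tsc22d3 (-1.11), a glucocorticoid-induced gene, and Klf9 (-0.69) on both lists. Of 12 immediate early genes 5 were higher and 1 lower. Striated muscle markers were higher for 6 of 6, with sums, scaled within each model, of 149 to 1530 CPM with empty vector and 128 to 372 CPM with saline. B cell markers were higher for 5 of 5, with sums of 82.5 to 218 CPM with empty vector and 25.9 to 67.8 CPM with saline, and T cell markers for 6 of 6, with sums of 21.1 to 78.5 CPM with empty vector and 14.8 to 19.7 CPM with saline. Endothelial markers were lower for 2 of 5, and fibroblast markers were higher for 1 and lower for 2 of 5. The part of these in the clock output results was not tested. In each of the 10 fits without 1 library 4 of the 9 were called. Nfil3 was called lower as well by limma voom (adjusted p = 0.0239), in a fit of only the compared groups (edgeR adjusted p = 0.0246) and without the libraries farthest from their group (edgeR adjusted p = 0.0363), which made 5 of the 9. This comparison and that of bleomycin with saline share the saline vehicle libraries. The effect of the empty vector and any other difference between the experiments cannot be told apart.

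How the genes varied from mouse to mouse within a group was described from log2 CPM after subtraction of each group's mean, over 40 libraries. Deviations of Dbp went with those of Nr1d1 (Pearson r = 0.886, Spearman rho = 0.88), Nr1d2 (0.82 and 0.801), Hlf (0.777 and 0.774) and Tef (0.762 and 0.757). Bhlhe41 followed less closely over the 40 libraries (0.536 and 0.541). Its Pearson r was 0.797 in the 20 libraries of the Ad-TGFβ1 model and 0.378 in the 20 of the bleomycin model. Ciart, with its 3 promoter E-boxes, did not follow Dbp (0.0548 and 0.0201), nor did Bhlhe40 (-0.173 and -0.0501). Nfil3 deviated against Dbp (-0.467 and -0.478), more closely in the 20 libraries of the Ad-TGFβ1 model (Pearson r = -0.749) than in the 20 of the bleomycin model (-0.353), and there -0.12 without the 2 libraries farthest out in Dbp. Without the 2 libraries farthest out in Dbp, Pearson r over 38 libraries was 0.85 for Nr1d1, 0.78 for Nr1d2, 0.728 for Hlf, 0.724 for Tef, 0.642 for Bhlhe41 and -0.348 for Nfil3. These are descriptions without a test, and the libraries share their counting and scaling.

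Dbp deviations spanned a wide range. Within the bleomycin lungs with saracatinib alone, Dbp differed 6.77-fold between its lowest and highest library and Tef 1.66-fold. Within the Ad-TGFβ1 lungs with saracatinib, Dbp differed 2.09-fold and Tef 1.22-fold. Ranked by correlation with Dbp were 17556 genes outside the 9 that passed the filter on low counts in both models and had a symbol. Their mean level, averaged over both models, was at least 1 CPM. The highest correlation was that of Per3 (r = 0.871), followed by Scn2a (0.662), Dnajc17 (0.628), Adra1d (0.617) and Dhtkd1 (0.615). The lowest were Arntl (-0.708), Gm43658 (-0.692), Gm25153 (-0.653), Fam49b (-0.651) and Dusp6 (-0.64). The core genes Per3 and Arntl thus stood at the ends of the ranking, and the gap between Per3 and the next gene was wide.

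**Figure D5:**
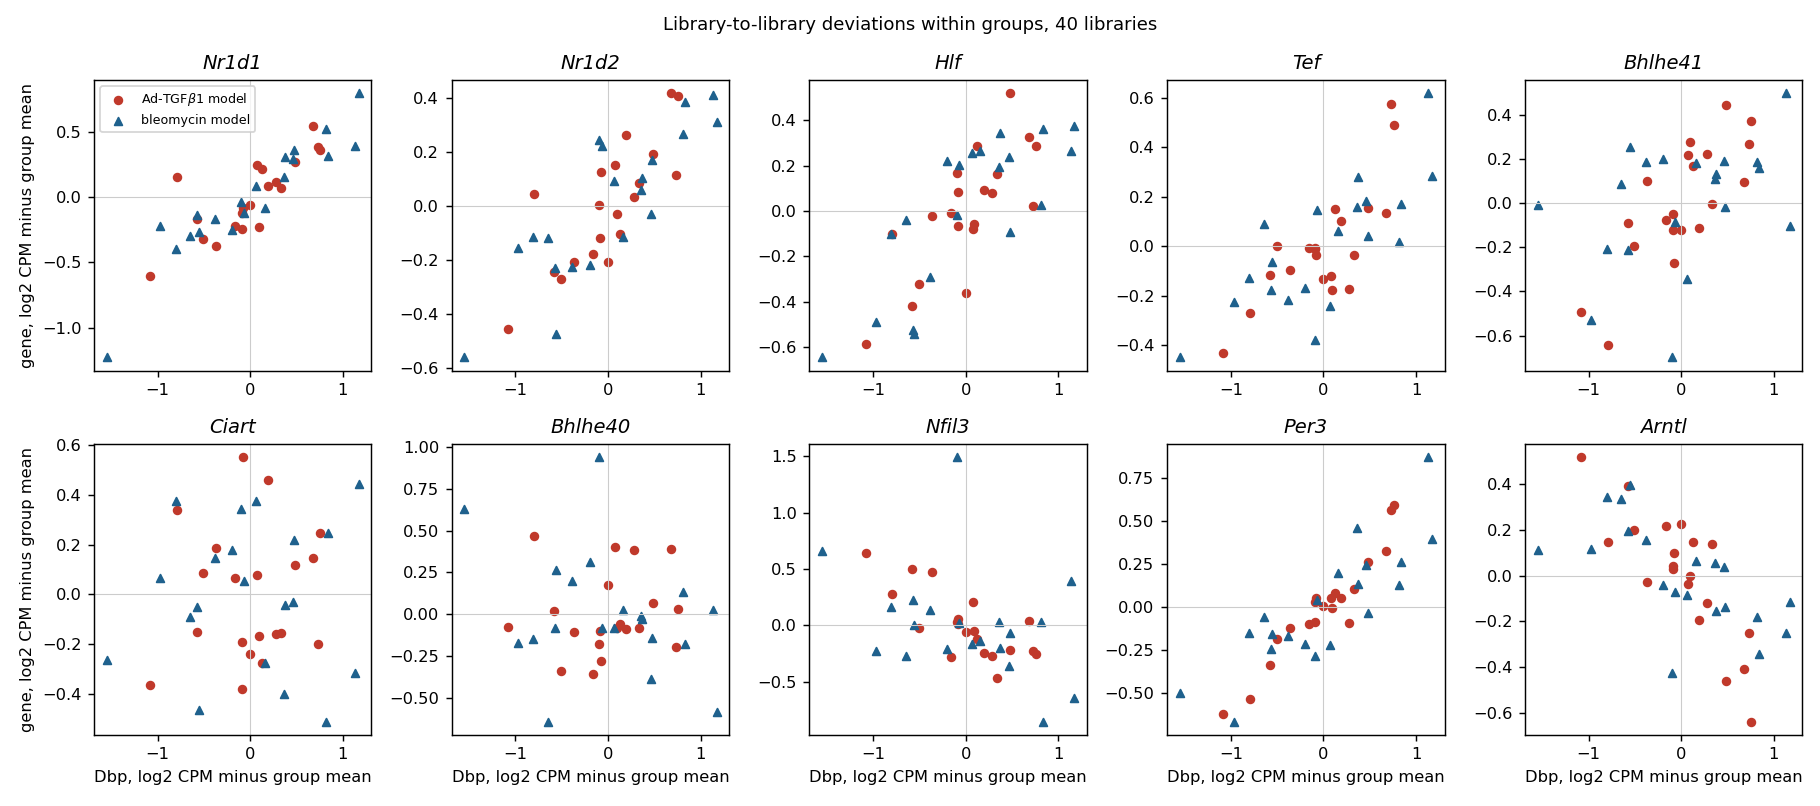
Each panel plots, for the 40 libraries, the deviation of Dbp from its group mean on the x axis and that of another gene on the y axis, both in log2 CPM, with circles for the Ad-TGFβ1 model and triangles for the bleomycin model. Nr1d1, Nr1d2, Hlf, Tef and Per3 rise with Dbp, Arntl falls, and Ciart and Bhlhe40 show no slope.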

How the data were processed

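Whole left lungs of 40 mice, 5 in each of 8 groups, were sequenced. Per the submitters' processing notes, alignment used STAR 2.6.1d, Picard was run, featureCounts (Subread 1.6.3) did the counting and edgeR the normalisation. The notes name both mm9 and GRCm38, and gene IDs were matched here to GENCODE M21 on GRCm38. The deposited values are whole-number counts of reads, 1 for each gene in each library. The authors also deposited a shorter table per model named as TMM normalized, whose values equalled the counts for 14832 of 14832 and 14856 of 14856 genes, and it was not used.

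From the counts, TMM-scaled CPM were computed within each model, with a prior count of 2 where a log2 was taken. After filterByExpr, edgeR's quasi-likelihood test (edgeR 4.0.16 in R 4.3.3) had 1 coefficient per group, over the 20 libraries of a model or over all 40 between models. Benjamini-Hochberg adjustment covered every tested gene, and "called" means an adjusted p under 0.05. The procedure was tested on simulated data. Replicates were numbered in accession order, and their pairs differed by more than counting noise (chi-square per degree of freedom 4.29 to 52.7 over 80 pairs). P-values measure only the spread between these libraries.

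The 9 genes and the gene lists were chosen with earlier results of these data known. Named besides the 9 are any of the core genes, up to 4 called genes of the other lists with the largest change, and the 5 genes most and 5 least correlated with Dbp. Alternatives were DESeq2's size factors, no filter on low counts, DESeq2 1.42.0, voom with quality weights from limma 3.58.1, a fit of the compared groups alone, and omission of each library in turn. Chosen after seeing the data were fits that omitted, in each model, the 2 libraries farthest from their group (bleomycin vehicle 3 and saline saracatinib 5, empty vector vehicle 1 and 5).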

Additional observations from a re-analysis of the deposited data

Results flagged for a closer look

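In 5 of the 72 sets of 5 libraries, 1 set per gene and group, a library stood apart from the other 4 by more than Dixon's limit, where chance gives about 1 in 20. They were Bhlhe41 in Ad-TGFβ1 lungs with saracatinib (library 4, highest at 53.8 CPM), Ciart in Ad-TGFβ1 lungs with vehicle (library 5, lowest at 9.44 CPM), Bhlhe41 in bleomycin lungs with vehicle (library 3, lowest at 15.3 CPM), and, in empty vector lungs with vehicle, Bhlhe40 (library 1, highest at 65.9 CPM) and Tef (library 5, highest at 254 CPM).

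Saracatinib effects in fibrotic lungs that differed between the models by edgeR's test were those on Nr1d2 (bleomycin minus Ad-TGFβ1, log2 -0.93) and Bhlhe41 (-0.96). Injury effects in vehicle mice that differed were those on Dbp (1.81), Nr1d2 (0.69), Ciart (-0.91) and Bhlhe41 (0.87). Without 1 library the saracatinib calls were lost in 5 of 20 fits for Nr1d2 and 10 for Bhlhe41. The injury calls were lost in 9 of 20 for Dbp and 12 for Nr1d2. The injury contrast includes the saline vehicle libraries of the comparison that led to the choice of genes. Its p-values are therefore not independent of that choice.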

How the results depend on the processing

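No log2 fold change of a clock output gene that was called by any fit changed sign. Values counted as unchanged were those called in both fits with the same sign, whatever their size, and uncalled values that moved by no more than their standard error. Outside the fits without 1 library, 531 of 585 values were unchanged, 10 calls were lost, 26 were gained, and 18 uncalled values moved by more than their standard error. Without 1 library, 1243 of 1350 were unchanged, 77 calls were lost, 17 were gained and 13 values moved.

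The number of the 9 genes called changed in these comparisons, and the cause was not tested. With saracatinib in Ad-TGFβ1 lungs (5 called), DESeq2 and limma voom each called 7. A fit of only the compared groups called 4 there, and one without the farthest libraries 6. For saracatinib in bleomycin lungs (1 called), DESeq2 called 2, while a fit of only the compared groups and one without the farthest libraries called 0. For bleomycin against saline in saracatinib mice (1 called), DESeq2, limma voom and the fit without the farthest libraries each called 3. A fit of only the compared groups called 1, Bhlhe40 (adjusted p = 0.0363) in place of Ciart (0.0606). For Ad-TGFβ1 against empty vector in saracatinib mice (0 called), DESeq2, limma voom, only the compared groups and the fit without the farthest libraries each called 1. For saracatinib in empty vector lungs (0 called), DESeq2 called 1. For empty vector against saline (4 called), limma voom, only the compared groups and the fit without the farthest libraries each added Nfil3. For the difference between models in the saracatinib effect (2 called), DESeq2 called 3, limma voom called 4 and no filter on low counts left 1. Without the farthest libraries the count stayed 2, with Tef gained (adjusted p = 0.0256) and Nr1d2 lost (0.0544). The difference between models in the injury effect (4 called) gave 3 with no filter, by limma voom and without the farthest libraries. Leaving out 1 library gave 0 to 5 for saracatinib in Ad-TGFβ1 lungs, 0 to 4 in bleomycin lungs, 0 to 3 in empty vector lungs, 0 to 2 and 0 to 1 for bleomycin and Ad-TGFβ1 in saracatinib mice, and 0 to 4 and 2 to 4 for the differences between models in the saracatinib and the injury effect.

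Over all genes, calls for saracatinib in Ad-TGFβ1 lungs were 17 by edgeR, 51 by DESeq2 and 101 by limma voom. In empty vector lungs they were 1 by edgeR, 7 by DESeq2 and 130 without the farthest libraries, while no filter or only the compared groups gave 0. For the interaction in the Ad-TGFβ1 model the counts were 0, 1 by DESeq2, 413 by limma voom and 254 without the farthest libraries, and 0 to 1190 without 1 library. The saracatinib count in bleomycin lungs was 2643, and 1661 without the farthest libraries. The difference between models in the saracatinib effect gave 481, 219 without a filter, 751 by DESeq2 and 285 without the farthest libraries, and that in the injury effect 2951, and 4756 by limma voom. For Ad-TGFβ1 against empty vector in saracatinib mice the counts were 485, 789 by DESeq2, 959 by limma voom and 941 without the farthest libraries. For empty vector against saline they were 5123, and 3132 with only the compared groups. Depth is a limit for Nfil3 in Ad-TGFβ1 lungs, where a library with saracatinib held as few as 47 reads of it. The same holds for Dbp in saline lungs with vehicle, where a library held as few as 44 reads. The part of depth in the results was not tested.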
